A study of Homo sapiens with 4 samples.

Results

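The ZNF genes encode zinc finger proteins, most of which bind DNA through arrays of C2H2 fingers. The 140 genes described here are those whose symbol is ZNF followed by digits only, each read from its brightest probe set with a single symbol, and whose mean log2 signal over the 4 arrays reached log2 of 110. They are 140 of 425 ZNF genes on the array (32.9%), while 7752 of all 19775 genes (39.2%) passed the same minimum. The other 285 ZNF genes lay under it. The members' mean signals ran from 110.1 to 4507, with a median of 203. The last genes inside the minimum were ZNF678 at 110.1, ZNF107 at 111.0 and ZNF407 at 111.5, and the first outside were ZNF316 at 109.99, ZNF700 at 108.2 and ZNF548 at 107.7. The members were thus selected on their mean signal over these same arrays, which is given only as a description. The rule itself uses no difference between arrays, but it was set with earlier results of these data known.

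The cells were SK-BR-3, an established breast cancer line in which HER2 is amplified and p53 carries a missense mutation. RNA was measured on 1 Affymetrix expression array for each of 4 groups. These were cells with control shRNA, cells with p53 shRNA, cells with control shRNA and siRNA against Pontin, and cells with both the p53 shRNA and the Pontin siRNA. Both groups without Pontin siRNA are marked sicon in their titles. All 4 groups had passed through shRNA vector transfection and puromycin selection, and RNA was taken 24 h after the siRNA step. The labels call the control vector both control shRNA and an empty vector, do not spell out what the groups marked sicon received, and give no siRNA sequence. Pontin, encoded by RUVBL1, is an ATPase found with its relative Reptin in chromatin remodelling and other complexes.

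Each knockdown could be read in 2 pairs of arrays with no array in common. For Pontin, the first pair set Pontin siRNA against control shRNA and the second set both knockdowns against p53 shRNA alone. For p53, the first pair set p53 shRNA against control shRNA and the second set both knockdowns against Pontin siRNA alone. The Pontin and p53 comparisons use the same 4 arrays, so they are not independent of each other. With 1 array per group there is no spread within a group. An additive model over the 4 arrays, with the pairs standing in for replicates, was not run, no p-values are given, and differences were judged by size. A gene is called higher or lower where both of its pairs had the same sign and differed by at least 1.5-fold, which is 0.58 in log2. All ratios are log2 of knockdown over its control. Where arrays with and without a knockdown are said not to overlap, the gene was picked by its ratios. The share of all genes without such overlap was not counted.

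The siRNA was checked on RUVBL1, whose signal was 477.7 on the control array and 398.2 on the p53 shRNA array. It fell to 127.4 on the Pontin siRNA array and 65.8 on the array with both knockdowns. The p53 transcript itself is not given here. Of the line's defining markers, ERBB2 read 4823 to 5581, EPCAM 5622 to 6320 and KRT8 5298 to 6438, and CDH1, the E-cadherin gene, read 1.8 to 13.0. Other markers of the line moved with p53 shRNA, in both directions. GATA3 read 650.5 and 556.2 without it and 334.8 and 350.4 with it, and TFAP2B read 187.0 and 161.5 without and 135.3 and 111.2 with it. TFAP2A went the other way, at 1098.8 and 1142.9 without p53 shRNA and 1374.8 and 1359.3 with it. STARD3 also rose, from 629.9 and 625.6 without it to 709.0 and 729.2 with it. GRB7 read 355.6 and 371.9 without p53 shRNA and 380.3 and 406.2 with it. The part of these markers in the p53 ratios of the members was not tested. Markers of other cell types were low on all arrays (VIM 3.9 to 18.5, PTPRC 3.7 to 8.3), except COL1A1 at 152.9 to 175.9. The array with both knockdowns had a median of 19.6 over all probe sets against 15.9 to 16.5 on the others, and its spiked hybridization controls read 1.42 times those of the control array. In bulk RNA, fewer cells expressing a gene and less RNA per cell cannot be told apart.

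Many ZNF proteins carry a KRAB domain, which recruits the corepressor TRIM28 and, through it, histone methylation and HP1 proteins that silence retroelements and other targets. KRAB zinc finger genes arose largely by tandem duplication, and on chromosome 19 they lie in long clusters. Of the members, 52 lie on chromosome 19 and 88 elsewhere, 14 of those on chromosome 7. Neighbouring copies can be so alike that one probe set detects several of them. Affymetrix marks probe sets that may cross-hybridize with the suffix _x_at and those shared by related transcripts with _s_at, and 13 and 25 of the members were read from such probe sets.

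The members with the lowest Pontin ratios included a group whose start regions resemble each other, and their sequences are shown for that reason. RefSeq's promoter table for GRCh38.p14 held 123 of the 140 members. The windows below are the 250 bases before the annotated start of ZNF267 (chr16:31873557-31873806, plus strand), ZNF680 (chr7:64563072-64563321, minus strand), ZNF107 (chr7:64665883-64666132, plus strand) and ZNF92 (chr7:65373605-65373854, plus strand), each read 5′ to 3′ on the strand of the gene. Capitals mark letters searched on both strands, namely CCAAT (the box bound by NF-Y), CCGGAAG (the core bound by ETS factors, here as CTTCCGG) and GGGCGG (the GC box). In ZNF267 the last GC box runs straight into CTTCCGG.
ZNF267: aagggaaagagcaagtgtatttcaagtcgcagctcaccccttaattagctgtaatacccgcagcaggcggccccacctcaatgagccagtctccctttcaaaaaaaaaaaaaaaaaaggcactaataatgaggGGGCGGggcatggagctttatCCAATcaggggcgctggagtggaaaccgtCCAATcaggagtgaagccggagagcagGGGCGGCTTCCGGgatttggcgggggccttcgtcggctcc
ZNF680: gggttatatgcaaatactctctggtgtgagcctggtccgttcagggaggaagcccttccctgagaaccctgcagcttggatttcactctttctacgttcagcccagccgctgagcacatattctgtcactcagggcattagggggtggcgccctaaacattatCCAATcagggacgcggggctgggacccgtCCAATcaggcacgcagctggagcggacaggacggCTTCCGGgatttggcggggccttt
ZNF107: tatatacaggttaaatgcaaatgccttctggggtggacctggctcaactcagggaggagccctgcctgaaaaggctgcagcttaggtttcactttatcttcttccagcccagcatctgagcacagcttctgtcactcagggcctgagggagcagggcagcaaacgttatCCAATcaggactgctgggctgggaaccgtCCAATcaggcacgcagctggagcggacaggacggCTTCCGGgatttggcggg
ZNF92: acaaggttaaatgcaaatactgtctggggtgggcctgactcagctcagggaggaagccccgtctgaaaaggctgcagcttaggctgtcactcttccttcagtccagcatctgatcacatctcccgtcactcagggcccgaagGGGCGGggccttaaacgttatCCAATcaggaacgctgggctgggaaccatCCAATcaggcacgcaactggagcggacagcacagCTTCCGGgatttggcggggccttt

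In all 4 windows a pair of CCAAT boxes is followed by CTTCCGG close to the start. The longest run of letters that the 4 windows share is GCTTCCGGGATTTGGCGGG, 19 bases. Its 15-base core, CTTCCGGGATTTGGC, occurs in the 300-base windows of 11 of 27305 genes in the table (0.0403%), and 4 of those are members. At least 2 CCAAT boxes together with the ETS letters occurred in 8 of the 123 members (6.50%), in 1.99% of other genes past the minimum and in 0.916% of all windows. The 8 include the 4 genes shown, which were picked for low Pontin ratios, and none of the other 4 was below 0 in both Pontin pairs. A match of letters is a description and not evidence of binding, and the shared run was looked for after the values of these genes were known.

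With Pontin siRNA the members as a family lay close to 0. Their median log2 ratio was 0.02 (0.02 in the first pair and 0.01 in the second), beside -0.0027 for all genes past the minimum, and the quartiles were -0.10 and 0.10. The call lower fell on 2 members, ZNF267 and ZNF703, against 1.1% of all genes, and the call higher fell on 0 members, against 0.181%. At 1.2-fold in both pairs, 7 members were lower, against 6.63% of all genes, and 2 were higher, against 3.73%. Ratios were above 0 in both pairs for 48 members (34.3%), the same share as among all genes (34.3%), and below 0 in both for 34 (24.3%), against 36.3% of all genes. In the other 58 members the pairs differed in sign. No member was past 1.5-fold with opposite signs in its pairs, against 0.0129% of all genes.

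ZNF267 had the lowest Pontin ratio of the family. Its signal was 466.0 with control shRNA and 595.8 with p53 shRNA, and 238.9 and 256.9 in the matching cells with Pontin siRNA. Both Pontin siRNA arrays lay below both arrays without it, at 1.95-fold lower in the first pair and 2.32-fold lower in the second (-0.96 and -1.21). ZNF267 was read from a single probe set that is not marked as cross-hybridizing.

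ZNF703, a transcriptional cofactor known as an oncogene of luminal breast cancer, was the other gene called lower. It read 193.8 and 173.9 without Pontin siRNA and 124.8 and 104.0 with it (-0.63 and -0.74). The lowest reading without the siRNA stood above the highest with it. ZNF703 has another probe set, which read 4.9 to 14.8 and gave 1.0 and -0.29. The mean ratio of the called probe set was -0.69. The call was lost with a pseudocount of 16, where the mean ratio was -0.62, and with the mean over its probe sets (-0.17).

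Next came genes of chromosome 7. ZNF92 read 470.1 and 500.7 without Pontin siRNA and 261.1 and 337.2 with it (-0.85 and -0.57). Its second pair fell just short of the call. ZNF107 read 153.0 and 122.4 without the siRNA and 102.3 and 79.3 with it (-0.58 and -0.63), just short in the first pair. ZNF680 read 250 and 318.1 without it and 210.7 and 148.4 with it (-0.25 and -1.10), so that its pairs were far apart. These are 3 neighbours in a run of 11 ZNF genes, and all 3 were below 0 in both Pontin pairs, with a median of -0.67. ZNF107 and ZNF680 were read from _x_at probe sets, and whether they share signal with each other or with ZNF92 was not tested.

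Of the 11 genes with the shared core, 7 were on the array by a single-symbol probe set and 5 of these passed the minimum. All 5 had ratios below 0 in both Pontin pairs, as did 36.3% of all genes past the minimum. The core was taken from the windows of the 4 members, which were picked for their low ratios. Their share in this count was thus fixed beforehand, and the remaining gene is only described. The fifth was KRABD5, which is no member, on chromosome 16 like ZNF267. It read 401.9 and 361.7 without Pontin siRNA and 314.2 and 278.5 with it (-0.36 and -0.38). Under the minimum, ZNF273 read 57.1 and 57.9 without and 47.1 and 39.3 with the siRNA (-0.28 and -0.56). ZNF675, also under it, read 4.9 to 8.1 on all arrays (-0.21 and 0.32).

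**Figure D1:**
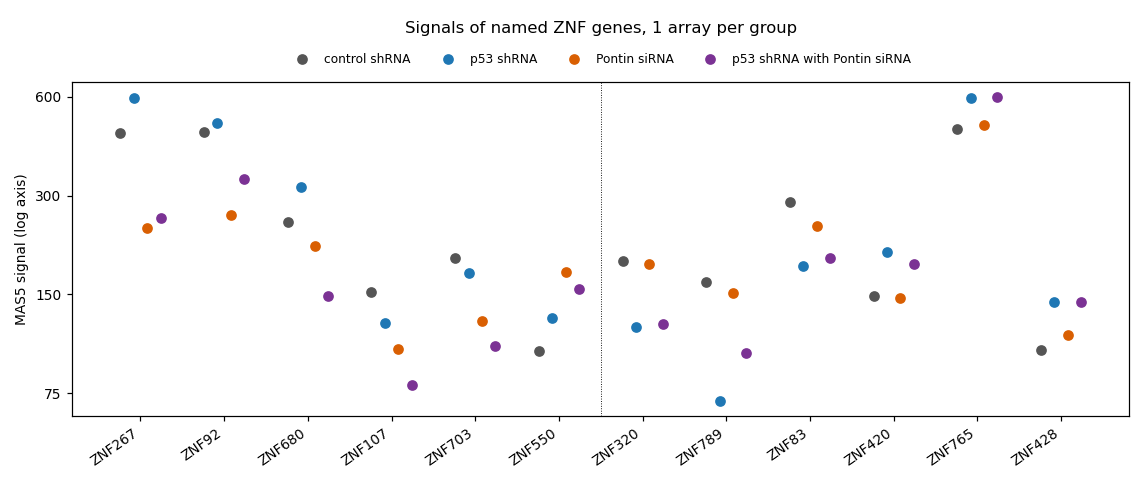
MAS5 signal (log axis) of 12 named ZNF genes on the 4 arrays, 1 point per array; the dotted line separates genes named for Pontin siRNA (left) from genes named for p53 shRNA (right). For ZNF267, both points with Pontin siRNA lie at 238.9 and 256.9, under both points without it at 466.0 and 595.8, and for ZNF320 the points with p53 shRNA lie at 118.9 and 121.9, under 189.5 and 185.3.

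Other members with low Pontin ratios moved by less than the call. ZNF678 read 122.4 and 122.2 without and 99.1 and 99.3 with the siRNA (-0.30 in each pair). ZNF45 read 155.3 and 180.6 without and 127.6 and 128.6 with it (-0.28 and -0.49). ZNF750, a regulator of epidermal differentiation, read 312.1 and 437.5 without and 258.1 and 313.4 with it (-0.27 and -0.48). At the other end, ZNF550 read 100.8 and 126.8 without and 175.5 and 156.0 with Pontin siRNA (0.80 and 0.30). ZNF576 read 140.4 and 143.4 without and 192.0 and 174.0 with it (0.45 and 0.28). The arrays with and without siRNA did not overlap for either gene. A second probe set of ZNF576 gave 0.24 and -0.08, so its direction was not shared. ZNF467, ZNF581, ZNF830, ZNF57 and ZNF595 had smaller-pair ratios between 0.18 and 0.22.

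With p53 shRNA too, few members reached the call, but a larger share of them than of other genes lay above 0. The median log2 ratio of the members was 0.06 (0.08 in the first pair and 0.03 in the second), beside -0.01 for all genes past the minimum. Mean ratios were above 0 for 89 of 140 members (63.6%), against 46.3% of the 7612 other genes. Ratios were above 0 in both pairs for 62 members (44.3%), against 30.1% of all genes, and below 0 in both for 28 (20.0%), against 36.6%. Mean ratios of single members ran from -0.90 to 1.06, and no test of the family median was made. The call lower fell on 2 members, ZNF320 and ZNF789, against 0.413% of all genes, and the call higher on 0, against 0.219%. At 1.2-fold in both pairs, 10 members were higher, against 3.28% of all genes, and 6 were lower, against 3.15%.

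**Figure D2:**
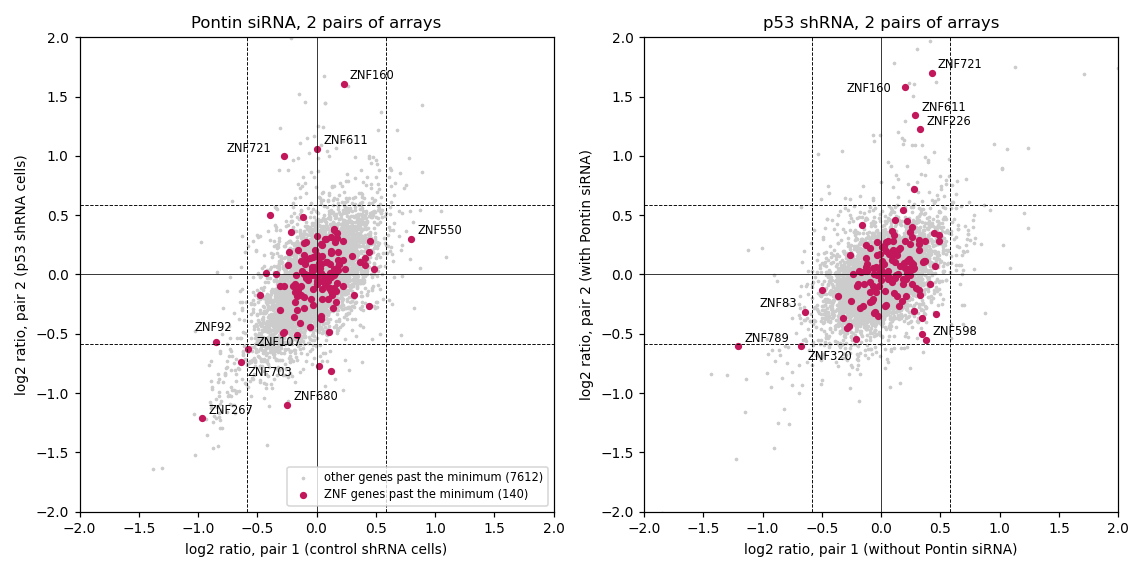
Log2 ratio of each gene in the first pair (x axis) and second pair (y axis) for Pontin siRNA (left) and p53 shRNA (right), with the 140 ZNF genes in pink, the 7612 other genes past the minimum in grey and dashed lines at 1.5-fold. ZNF267 lies at -0.96 and -1.21 for Pontin siRNA, and ZNF320 and ZNF789 lie past both lower lines for p53 shRNA; 1 other gene on the left and 5 on the right lie outside the axes.

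ZNF320 read 189.5 and 185.3 without p53 shRNA and 118.9 and 121.9 with it (-0.67 and -0.60). The values without the shRNA were alike, as were those with it, and they did not overlap. A second probe set of the gene, of the _x_at kind, gave 174.3 and 136.6 without and 199.5 and 101.9 with p53 shRNA (0.19 and -0.42), so the call rests on a single probe set. The mean ratio of the called probe set was -0.64. The call was lost, with a mean ratio of nearly the same size, after cyclic loess normalization (-0.63), median centring (-0.61) and a pseudocount of 16 (-0.58), and was -0.38 with the mean over probe sets. The window before the ZNF320 start (chr19:52897695-52897944, minus strand) is shown because it differs from those above, with GC boxes as CCGCCC, a reverse CCAAT box as ATTGG and no ETS letters.
ZNF320: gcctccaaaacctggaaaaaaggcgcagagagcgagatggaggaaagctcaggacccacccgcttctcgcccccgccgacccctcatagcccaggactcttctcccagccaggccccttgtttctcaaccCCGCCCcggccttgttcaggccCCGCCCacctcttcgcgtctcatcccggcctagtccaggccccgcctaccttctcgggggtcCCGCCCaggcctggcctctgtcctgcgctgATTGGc

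ZNF789 read 163.8 and 150.9 without p53 shRNA and 71.1 and 99.3 with it (-1.20 and -0.60). The arrays with the shRNA lay under both arrays without it. Its 3 other probe sets were under the minimum, and none gave a ratio below -0.03 in either pair. The mean ratio of the called probe set was -0.90. The call was lost after median centring (-0.88) and with a pseudocount of 16 (-0.79), and with the mean over probe sets (-0.13). ZNF83 read 286.0 and 241.9 without and 183.6 and 194.2 with the shRNA (-0.64 and -0.32), and its second probe set gave -0.42 and -0.03. ZNF689 (-0.27 and -0.44), ZNF609 (-0.29 and -0.45), ZNF397 (-0.26 and -0.23) and ZNF232 (-0.21 and -0.55) were lower in both pairs but short of the call. ZNF107, low with Pontin siRNA, was also low with p53 shRNA (-0.32 and -0.37) and read least, 79.3, with both.

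Several members were higher by a like amount in both pairs. ZNF420, a KRAB protein also called Apak and described as a negative regulator of p53, read 148.4 and 145.7 without p53 shRNA and 202.1 and 185.6 with it (0.45 and 0.35). A second probe set of ZNF420 gave 0.25 and -0.0014. ZNF765 read 477.6 and 491.0 without and 595.5 and 599.3 with the shRNA (0.32 and 0.29), and its second probe set gave 0.11 and 0.18. ZNF428 read 101.4 and 112.6 without and 142.5 and 142.2 with it (0.49 and 0.34). ZNF165 read 204.5 and 204.7 without and 263.7 and 249.6 with it (0.37 and 0.29). For each of these 4 genes the arrays with and without p53 shRNA did not overlap. They were picked for ratios of the same sign in both pairs, so this only describes them. ZNF750 (0.49 and 0.28) and ZNF595 (0.26 and 0.40) were also past 1.2-fold, ZNF750 in the direction opposite to its Pontin ratio.

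Of the 10, another 3 had a far larger ratio in the pair with Pontin siRNA. ZNF721 read 912.0, 1226, 754.8 and 2449 with control shRNA, p53 shRNA, Pontin siRNA and both (p53 pairs 0.43 and 1.70). This is its _x_at probe set, and its plain _at probe set gave -0.08 and -0.17, the opposite direction. ZNF611 read 174.2, 212.8, 175.1 and 444.0 in the same order (0.29 and 1.34). ZNF226, the third, read 145.5, 182.9, 111.1 and 259.2 (0.33 and 1.22). Its second probe set read 127.1, 168.2, 146.0 and 188.9, with p53 ratios of 0.40 and 0.37. The last of the 10, ZNF71, read 111.0, 134.5, 82.5 and 135.9 (0.28 and 0.72).

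Members on and off chromosome 19 were then read apart. With p53 shRNA the 52 members there had a median p53 ratio of 0.11 (0.18 and 0.12 in the pairs), and 42 had a mean above 0. Of these 52, 28 (53.8%) were above 0 in both pairs and 3 (5.77%) were below 0 in both, namely ZNF320, ZNF83 and ZNF304. The 88 members elsewhere had a median of 0.01, and 47 had a mean above 0. Both p53 pairs were above 0 for 34 of them (38.6%) and below 0 for 25 (28.4%). The 357 other genes of chromosome 19 had a median of 0.04, with 214 above 0, and the 7255 other genes elsewhere had a median of -0.02. Of those 357, 147 (41.2%) were above 0 in both pairs and 82 (23.0%) below, against 29.3% and 37.6% of the other genes elsewhere. For Pontin siRNA the order of the medians was different. The 357 other genes of chromosome 19 stood at 0.10, the chromosome 19 members at 0.03, and members elsewhere at 0.0015.

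**Figure D3:**
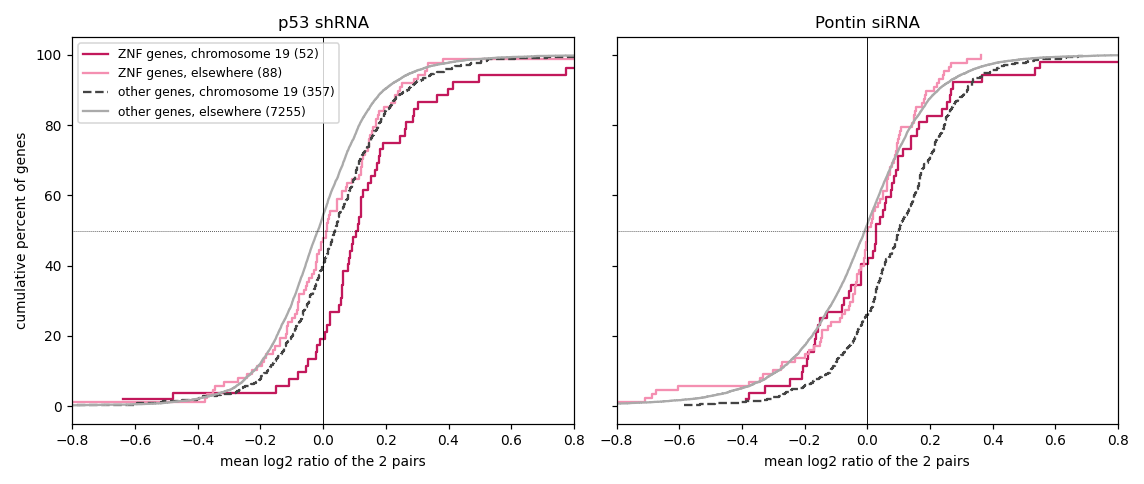
Cumulative percent of genes by mean log2 ratio of the 2 pairs for p53 shRNA (left) and Pontin siRNA (right), for ZNF genes and other genes past the minimum, split by chromosome 19; the x axis stops at 0.8 on either side. With p53 shRNA the curve of chromosome 19 ZNF genes lies to the right, with a median of 0.11, and with Pontin siRNA the curve of other chromosome 19 genes lies to the right, with a median of 0.10.

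The members were also read by signal band beside other genes of like signal. In the band from 110 to 220 the members' median p53 ratio was 0.02, beside -0.0049 for other genes of the band. From 220 to 440 it was 0.12 over 34 members, beside -0.03, and 26 of the 34 had a mean above 0. At 440 and above it was 0.02, beside -0.01. Pontin medians of the members stayed within 0.01 to 0.02 in all 3 bands. Across the 4 arrays, the control array gave the lowest signal for 50 of the 140 members (35.7%), against 21.6% of other genes. The highest signal was on the p53 shRNA array for 44 members (31.4%, against 26.9% of other genes) and on the array with both knockdowns for 46 (32.9%, against 24.1%).

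Neighbouring members were compared in runs, defined as ZNF genes in order along a chromosome with at most 2 other protein-coding genes between them and at least 3 members. There were 9 such runs. Among all genes past the minimum, 30.1% were above 0 in both p53 pairs and 36.3% below 0 in both Pontin pairs. With p53 shRNA, the chromosome 19 run of ZNF146, ZNF529, ZNF567, ZNF420 and ZNF875 had a median of 0.16, and all 5 were above 0 in both pairs. The run of ZNF45, ZNF226, ZNF227 and ZNF180, also on chromosome 19, had a median of 0.15 and 4 of 4 above 0 in both pairs, and with Pontin siRNA 3 of these 4 were below 0 in both pairs. The run from ZNF350 to ZNF331 held 12 members with a p53 median of 0.12, and it contains ZNF320 and ZNF83 next to ZNF160, ZNF611 and ZNF765, so neighbours there went both ways. The run from ZNF805 to ZNF8, also of 12 members on chromosome 19, had a p53 median of 0.06. Of its members, 4 were above 0 in both p53 pairs. On chromosome 12, ZNF84, ZNF140 and ZNF268 had a p53 median of 0.24. With Pontin siRNA the run medians lay between -0.18 and 0.16, except for the run of ZNF680, ZNF107 and ZNF92 at -0.67.

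**Figure D4:**
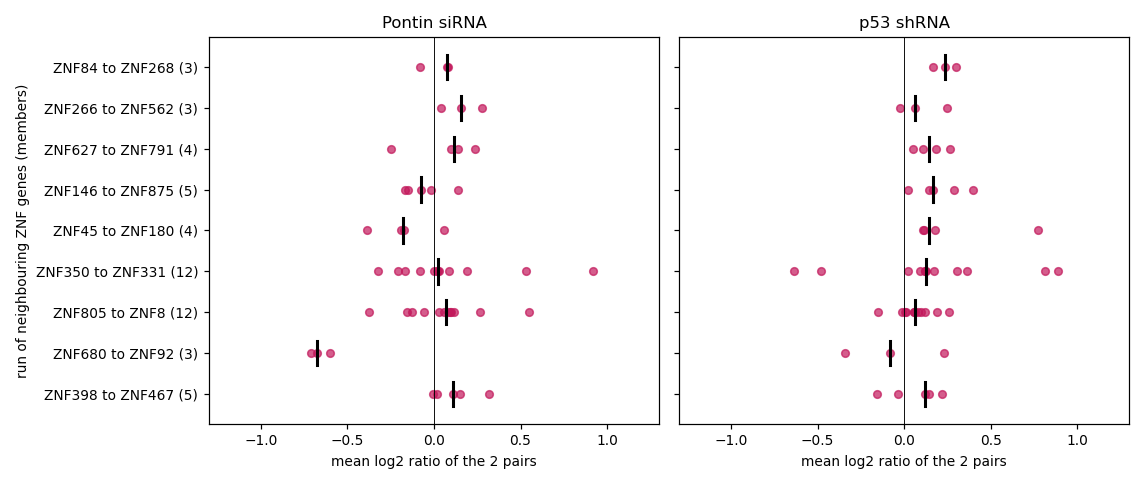
Mean log2 ratio of the 2 pairs for members in 9 runs of neighbouring ZNF genes, for Pontin siRNA (left) and p53 shRNA (right); points are genes, bars are run medians and the number of members is in parentheses. The run from ZNF680 to ZNF92 has a Pontin median of -0.67, and the 5 members from ZNF146 to ZNF875 all lie above 0 with p53 shRNA.

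The effect of both knockdowns together was set against the sum of the single ones. The departure is the log2 signal with both, minus the log2 signals of the single knockdowns, plus the control's. Its median over the members was -0.03, beside -0.02 for all genes. It reached 1.5-fold upward for 5 members, against 1.38% of all genes, and downward for 5, against 1.21%. ZNF160 stood highest at 1.38, with signals of 389.8, 447.4, 456.7 and 1363 for control shRNA, p53 shRNA, Pontin siRNA and both. ZNF721 (1.27) and ZNF611 (1.05) followed. All 3 were read from _x_at probe sets, and each had its highest signal with both knockdowns. Among all genes past the minimum, 33 of 490 with an _x_at probe set had an upward departure of this size (6.73%), against 44 of 4605 with a plain _at probe set (0.955%). The other probe sets of ZNF160 read 27.0 or less.

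At the low end, ZNF598, an E3 ubiquitin ligase that acts on collided ribosomes, read 123.4, 160.9, 134.5 and 91.8 in the same order, a departure of -0.93. ZNF680 (-0.85), ZNF552 (-0.79) and ZNF544 (-0.71) were the next lowest. ZNF552 read 348.0, 479.1, 353.0 and 280.4, and ZNF544 read 147.7, 187.4, 201.2 and 156.3. In ZNF598 and ZNF552 the p53 shRNA array was the highest and the array with both knockdowns the lowest.

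The 3 brightest members were ZNF217, ZNF704 and ZNF664, and none of them differed by 1.2-fold in any pair. ZNF217, a factor amplified in breast cancers, read 4068 on the control array, 4663 and 4512 on those of the p53 shRNA and the Pontin siRNA, and 4823 on the array with both. ZNF704 read 3457, 3355, 3234 and 3372, and ZNF664 read 2843, 2719, 2773 and 2784. Among members of lower signal, ZNF622, a ribosome assembly factor, read 796 to 827 on all arrays. ZNF207, the spindle checkpoint protein BuGZ, read 1281 to 1340. ZNF143, an activator of snRNA genes, read 436.3, 422.8, 510.4 and 459.8. ZNF274, a KRAB protein that guides TRIM28 and SETDB1 to zinc finger gene clusters, read 140.3, 174.9, 196.9 and 180.1, lowest on the control array.

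The pairs and the probe sets were compared with each other. Across the 140 members the first and second Pontin pairs had a Pearson correlation of 0.37, against 0.61 over the 7612 other genes, and for p53 the values were 0.40 and 0.50. These describe genes on the same 4 arrays. Further probe sets past the minimum existed for 33 members. Averaged per gene, their ratio shared the sign of the brightest probe set in 18 with Pontin siRNA (54.5%, against 66.7% of 2938 other genes). With p53 shRNA it did so in 23 (69.7%, against 66.2%).

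**Figure D5:**
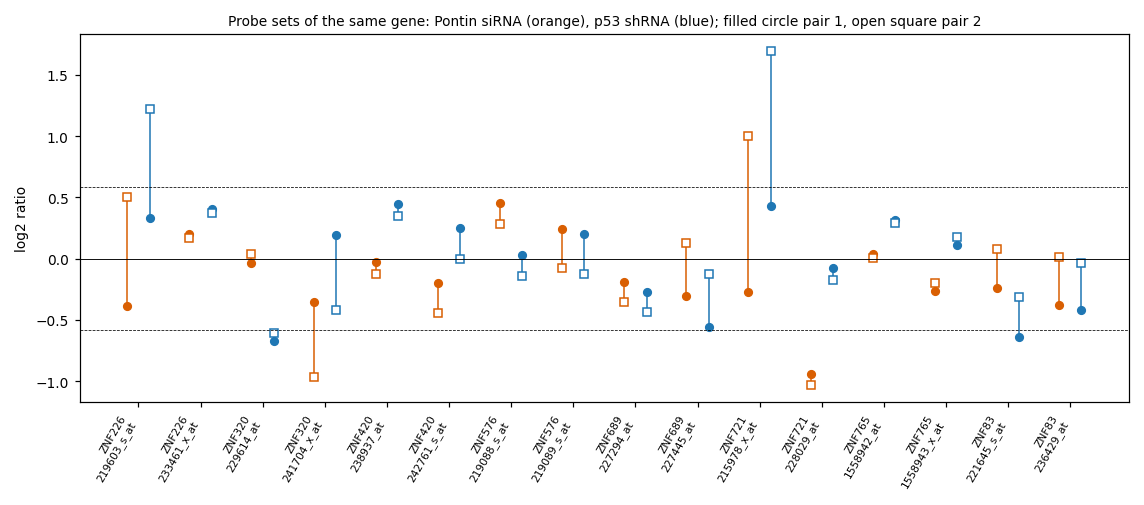
Log2 ratios of separate probe sets of the same gene for 8 named members, Pontin siRNA in orange and p53 shRNA in blue, first pair as filled circles and second pair as open squares, with dashed lines at 1.5-fold. For Pontin siRNA the probe sets of ZNF721 are both below 0 in the first pair (-0.27 for the _x_at set and -0.94 for the other) and on opposite sides in the second (1.0 and -1.03).

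Genes of the corepressor machinery that KRAB proteins recruit were read from a list of 39, of which 32 passed the minimum. Their median was -0.01 with Pontin siRNA and 0.01 with p53 shRNA. With Pontin siRNA 8 of the 32 were above 0 in both pairs and 12 below, against 34.3% and 36.3% of all genes. With p53 shRNA these counts were 9 and 12, against 30.1% and 36.6% of all genes. The call higher with Pontin siRNA fell on 0.181% of all genes past the minimum. On the list it was the single call and fell on CBX1, an HP1 protein. CBX1 read 567.5 and 549.3 without Pontin siRNA and 947.4 and 908.3 with it (0.74 and 0.73). TRIM28 itself read 252.8 and 251.8 on the arrays without p53 shRNA and 212.4 and 209.6 on those with it. It was lower in both arrays with p53 shRNA (-0.25 and -0.26) and level with Pontin siRNA (-0.01 and -0.02), short of the call.

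Other C2H2 families past the minimum were small, and none held a called gene. With p53 shRNA the 12 KLF genes had a median of 0.20, with 9 above 0 in both pairs and 0 below, and KLF11 was at 0.41 in each pair. The 17 ZBTB genes had a median of 0.11, with 11 above 0 in both pairs and 2 below. Among all genes, 30.1% were above 0 in both p53 pairs and 36.6% below. The 4 ZSCAN genes stood at 0.17, the 5 ZFP genes at -0.03, and the 8 ZNF genes with a letter after the digits at 0.01. With Pontin siRNA the KLF genes stood at 0.08, the ZBTB genes at -0.07 and the ZFP genes at -0.16.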

How the data were processed

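RNA was measured on 4 arrays of 54675 probe sets, 1 per group, with 200 ng of total RNA per array, per the labels' protocols. The authors deposited MAS5 signal intensity values on a linear scale, named in the submitters' processing notes without a version. Trimmed of 2% at either end, every array averaged 150.02, so the deposited values were already scaled. The number of arrays limits the precision.

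Gene symbols came from the platform's annotation of the probe sets and were brought up to date by Entrez identifier (GRCh38 table): 41097 had 1 symbol, of which 41043 matched, 1801 had several and 11777 none. Log2 was taken of the signals as deposited, without a pseudocount, and 14 zeros were set to 0.1. Each gene was read from its probe set of highest mean log2 signal. Python 3.11.15, pandas 2.3.3 and numpy 2.4.6 were used, with R 4.3.3 and limma 3.58.1 for the quantile and cyclic loess alternatives. The scripts were tested on simulated data. Other normalizations, minimums, probe set rules, folds and a pseudocount were tried as alternatives.

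Named genes are all called members, the 8 members with the largest smaller-pair ratio in each direction for each knockdown, the 4 highest and 4 lowest departures, the 3 brightest and those beside the minimum. ZNF622, ZNF207, ZNF143, ZNF274, ZNF304, ZNF71, ZNF77, ZNF451, KRABD5, ZNF273, ZNF675 and KLF11 lie outside that rule and were picked after their values were seen. The members and lists were chosen with earlier results of these data known. Protein features, and the transcript targeted by the p53 shRNA, were not analysed here.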

Additional observations from a re-analysis of the deposited data

Results flagged for a closer look

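For 7 members, the ratio of a knockdown was past 1.2-fold in opposite directions in its pairs, and the departure from additivity reached 1.5-fold. This is 5.0% of the members, against 1.16% of all 7752 genes past the minimum. The difference between the pairs was not tested, because each value is 1 array. With Pontin siRNA, ZNF721 gave -0.27 without and 1.0 with p53 shRNA (departure 1.27), and ZNF226 gave -0.39 and 0.50 (0.89). With p53 shRNA, ZNF598 gave 0.38 without and -0.55 with Pontin siRNA (-0.93). ZNF680 gave 0.35 and -0.51 (-0.85), and ZNF552 gave 0.46 and -0.33 (-0.79). ZNF544 gave 0.34 and -0.36 (-0.71), and ZNF77 gave 0.27 and -0.31 (-0.59).

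Probe sets that did not represent their gene in the report were also read. Of 43 second probe sets past the minimum, 2 were lower by at least 1.5-fold in both Pontin pairs (4.65%, against 0.988% of 4453 such probe sets of all genes) and 0 were higher (against 0.247%). For p53 shRNA 0 were higher and 0 lower, against 0.225% and 0.202%. A second probe set of ZNF451, a SUMO ligase, read 211.6 and 218.0 without Pontin siRNA and 125.7 and 90.5 with it, a mean ratio of -1.01, while its brightest probe set gave -0.28 and -0.09. The plain _at probe set of ZNF721 read 281.1 and 266.3 without and 146.5 and 130.0 with the siRNA, a mean ratio of -0.99, against the opposite sign in the second pair of its _x_at probe set.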

How the results depend on the processing

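No replicate block was fitted, since the labels give no replicate numbers. The members' median p53 ratio stayed above that of all genes under each alternative run. The 2 members lower with p53 shRNA became 1 after cyclic loess (ZNF789), 0 after median centring, with a pseudocount of 16, with the mean over probe sets or with a minimum of 220, 6 at 1.2-fold, 0 at 2-fold and 11 with no minimum. The 2 lower with Pontin siRNA became 1 with the pseudocount, the mean over probe sets or the minimum of 220 (ZNF267 each time), 3 after quantile or cyclic loess normalization (ZNF107 added), with _at probe sets only (ZNF721 added) or in the first pair alone (ZNF92 added), 7 at 1.2-fold, 0 at 2-fold and 12 with no minimum. The 0 higher with Pontin siRNA became 2 at 1.2-fold, 19 with no minimum and 1 in the pair without the array with both knockdowns (ZNF550). The 0 higher with p53 shRNA became 10 at 1.2-fold and 19 with no minimum. With the minimum of 220, ZNF320, ZNF789 and ZNF703 were no longer members, since their signals were under 220 on all arrays. That setting therefore does not test their calls. At 1.2-fold, 6.63% of all genes were lower and 3.73% higher with Pontin siRNA, and 3.15% and 3.28% with p53 shRNA. The counts with no minimum are out of 425 ZNF genes, 285 of them under the minimum. The share of all genes is not given for that setting, so these counts say nothing about ZNF genes in particular. Median centring moved the Pontin median to 0.048, beside 0.03 for all genes. The median departure was 0.014 without probe sets marked _x_at, _s_at or _a_at and 0.025 with no minimum. In that first pair alone, an alternative chosen after seeing the data, 42.9% of members were below 0 for Pontin siRNA (50% of all genes) and 34.3% for p53 shRNA (51.1%). Of 185 comparisons for 32 named results, 180 kept their sign, but 31 moved by at least 1 SD of the gene's pairs and 9 lost a call. With _at probe sets only, the p53 ratio of ZNF721 was -0.13, and averaging probe sets gave ZNF107 a Pontin ratio of 0.66.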

Other observations

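Start regions of the members were compared with those of other genes in the RefSeq table, over 250 bases before the start. The members' median GC content was 63.6% (123 genes), beside 65.2% for 6420 other genes past the minimum and 58.0% for all 27305. Members on chromosome 19 stood at 61.4% with a median of 17 CpG, and members elsewhere at 65.2% with 21. The ETS letters CCGGAAG, on either strand, were in 28.5% of members, 18.1% of other genes past the minimum and 8.82% of all windows. CCAAT was in 43.9%, 36.8% and 33.0%, and GGGCGG in 66.7%, 69.9% and 42.3%. The E-box CACGTG was in 4.88% of members and 9.75% of other genes past the minimum. Members with the ETS letters had a median p53 ratio of 0.07 and those without 0.05, and their Pontin medians were 0.0032 and 0.03. These are descriptions of letters, and their part in the ratios was not tested.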
